A study of Mus musculus with 1699 samples.

Results

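Pitx3 (ENSMUSG00000025229), the eGFP sequence placed in its locus (the row EGFP) and Elovl3 (ENSMUSG00000038754) were followed in single cells sorted from the mouse ventral midbrain. They are 3 of the 39468 gene entries in every cell's file and were picked by identifier, with earlier results of these data known. Values were taken from the 1674 of 1699 cells that held over 100000 reads. The shallowest cell kept had 100007 reads and the deepest one left out had 75509. Each cell was lysed on its own and its polyadenylated RNA was copied and sequenced by Smart-seq2, a full-length method that does not mark the strand.

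Every animal carried at least 1 copy of the knock-in allele Pitx3tm1Mli, in which eGFP is targeted to the Pitx3 gene, and no wild-type cells were among the samples. Heterozygous cells, called Pitx3eGFP/wt, were taken at 3 embryonic stages, E13.5 with 8.36% of the 1674 cells (140 cells), E15.5 with 8.42% and E18.5 with 11.2%, and at 3 postnatal ages, P1 with 19.1%, P7 with 11.2% and P90 with 19.4%. Homozygous cells, called Pitx3eGFP/eGFP, which have no intact copy of Pitx3, were taken at E13.5 (11.1% of the cells) and P1 (11.2%). All cells were chosen by GFP fluorescence, so a cell with no eGFP protein had little chance to be measured. The labels name no animal, so each stage and genotype counts as 1 sample and no test was made. Intervals at 95% are Clopper-Pearson for a share, Newcombe for a difference of shares and Poisson for summed reads, and they cover counting error only. Those for summed reads and their ratios count each read as independent, so they leave out the spread between cells. Where a count is 0, the limit given is 3 counts of the total. At E13.5 the homozygous cells all held spike-in RNA and the heterozygous cells held none, so there genotype cannot be told apart from spike-in and plate. At P1, 94 of the heterozygous cells held spike-in RNA, like all the homozygous ones, and values against these 94 are given too. All 94 came from plate P1_1, and the homozygous cells came from P1H_1 and P1H_2. Genotype thus cannot be told apart from plate at P1 either.

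Pitx3 is a homeodomain transcription factor of the bicoid class, made in midbrain dopamine neurons and in the lens, and mice that lack it lose dopamine neurons of the substantia nigra. Because eGFP sits in the Pitx3 locus, it is transcribed from the Pitx3 promoter and labels the cells in which that promoter is active. Elovl3 encodes an elongase of the endoplasmic reticulum that lengthens saturated and monounsaturated fatty acids to very long chains, and is best known from skin glands, liver and brown fat.

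The genes lie end to end on chromosome 19. In the mm10 annotation (GENCODE), Elovl3 runs on the plus strand at chr19:46131897-46135694 and Pitx3 on the minus strand at chr19:46135685-46148326, so that their 3′ ends meet and overlap by 10 bases. The Elovl3 transcript that the files list (4 exons and 1593 exonic bases, ending at 46135312) stops short of Pitx3, and a longer annotated one (1881 exonic bases) makes the overlap. The starts are 16.4 kb apart. Since the libraries carry no strand, reads from overlapping ends could not be assigned to one gene or the other. The sequence before the Pitx3 start, which Pitx3 and eGFP share, is printed from RefSeq (GRCm38.p6, minus strand, chr19:46148326-46148575), with the GC box GGGCGG in capitals.
Pitx3 promoter: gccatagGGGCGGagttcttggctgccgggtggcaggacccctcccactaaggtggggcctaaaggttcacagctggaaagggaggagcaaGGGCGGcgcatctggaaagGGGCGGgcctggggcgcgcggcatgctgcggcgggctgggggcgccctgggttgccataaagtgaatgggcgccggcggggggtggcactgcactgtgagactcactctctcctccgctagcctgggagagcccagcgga
The window from 250 bases before to 50 bases after the start held GGGCGG 5 times on either strand, 3 of them in the printed stretch. GGGCGG occurred on either strand in 35.7% of the 32851 promoter windows of that length. The window's GC content was 71.7% against a median of 52.7%. It held no match on either strand to TAATCC (the core site of bicoid-class factors such as Pitx3, in 7.06% of windows), AAAGGTCA (a site of nuclear receptors such as Nr4a2, 1.51%), TAATTA (a homeodomain site, 5.29%), TGTTTAC (a forkhead site, 3.65%), TATAAA (13.6%) or CACGTG (7.15%). These are letter matches and say nothing of binding.

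The sorted cells carried neuronal genes in all 8 groups. At least 2 of the neuron markers Tubb3, Snap25, Stmn2 and Elavl4 were over an RPKM of 10 in 94.4% to 100% of the cells outside P7 and in 58.5% at P7. RPKM is reads per kilobase of gene model, scaled to a fixed read total. At least 2 of Th, Slc6a3, Slc18a2, Ddc and Nr4a2, genes of dopamine neurons, passed that level in 42.6% of P7 cells and in 81.2% to 98.6% elsewhere. Such cells need not be dopamine neurons: the paper reports Nr4a2 in both of its main branches, of low and high Slc6a3. Slc6a3 passed that level in 31.4% of P90 cells and 2.69% of E13.5 homozygotes. At least 3 of 8 oligodendrocyte lineage markers passed it in 93 cells at P7, 49 P1 heterozygotes, 23 P1 homozygotes, 9 cells at E18.5, 3 at P90 and 1 E13.5 homozygote. Cells with 2 or 3 such markers, near that limit, numbered 64 at P7 and 56 and 43 in the P1 groups. At P7, 47.9% of cells also had at least 2 of 4 astrocyte markers. Median depth lay between 732071 reads in E13.5 homozygotes and 2357898 in E13.5 heterozygotes.

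Pitx3 itself was compared first between genotypes. In E13.5 heterozygotes its RPKM had a median of 352.5 over cells (quartiles 134.1 and 585, highest 1896), and in homozygotes a median of 15.5 (quartiles 4.38 and 28.7, highest 94.7). The highest homozygous cell thus lay below the lower quartile of the heterozygotes. At P1 the median was 31.9 in heterozygotes (highest 981) and 3.65 in homozygotes (highest 48.5). No homozygous cell of either stage reached an RPKM of 150, while 71 P1 heterozygous cells did, and the E13.5 heterozygous median itself lay above it.

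Summed over cells and scaled to 1000000 reads (CPM), Pitx3 stood at 493 (95% interval 490 to 495) in E13.5 heterozygotes and 29.9 (29.1 to 30.7) in homozygotes, a 16.5-fold lower level. At P1 the CPM was 92.7 and 9.96, 9.30-fold lower. Against the P1 heterozygotes with spike-in the P1 homozygotes were 13.8-fold lower. Pitx3 reads did not vanish in homozygotes: 84.9% of E13.5 and 85.6% of P1 homozygous cells held at least 1. These reads went with eGFP, with 6.65 Pitx3 reads per 100 eGFP reads at E13.5 and 8.23 at P1. The files give no read positions, so whether they came from parts of Pitx3 that the knock-in allele retains was not tested. The share of cells with any Pitx3 read separated the genotypes less. At P1 it was 4.06 percentage points higher in homozygotes (79.7% to 90.3%) than in all heterozygotes (76.8% to 85.6%), with overlapping intervals. In the heterozygotes with spike-in it was 92.6%, above the homozygotes. Without cells with at least 3 oligodendrocyte markers it was 88.4% in P1 homozygotes and 87.8% in P1 heterozygotes.

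eGFP was higher in homozygotes, which carry the sequence on both copies of the locus. At E13.5 its median RPKM was 269.1 in heterozygotes (upper quartile 499.5) and 608 in homozygotes (upper quartile 1173, highest 2738). The CPM was 200.9 in heterozygotes and 449.7 in homozygotes, 2.24-fold higher. At P1 it was 61.8 and 121.04, 1.96-fold higher, and the fold against spike-in heterozygotes was 1.86. The share of cells over an RPKM of 10 did not differ beyond counting error: 92.9% and 88.2% at E13.5 (homozygotes minus heterozygotes -4.69 percentage points, 95% interval -11.0 to 2.05) and 73.98% and 78.6% at P1 (4.63 points, -3.22 to 11.9). Against the spike-in heterozygotes the P1 difference had the other sign (-7.56, -16.1 to 2.36).

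Elovl3 was seen in few E13.5 homozygotes. In heterozygotes 100 of 140 cells were over an RPKM of 10, which is 71.4% (95% interval 63.2% to 78.7%), with a median of 30.9 and a highest value of 220. In homozygotes 5 cells were, 2.69% (0.878% to 6.16%), and 12 cells held any Elovl3 read. The difference was -68.7 percentage points (-75.7 to -60.1). The CPM was 62.7 in heterozygotes and 2.88 (2.64 to 3.14) in homozygotes, a log2 ratio of -4.45 and a 21.8-fold lower level. Homozygous cells were sequenced less deeply. With 100000 reads drawn from each cell the shares were 70.7% and 3.76%.

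The 5 homozygous cells with Elovl3 over an RPKM of 10 at E13.5 had values of 118.8, 99.3, 77.1, 57.03 and 10.1. In 4 of the 5 cells Elovl3 had more reads than Pitx3, and 3 of the 5 had Th over an RPKM of 150. The cell with the most Elovl3 reads gave 44.7% of all those of the group, and without it the log2 ratio was -5.28. The 5 cells came from the plates 13H_4 and 13H_6, with none on 13H_5, where 24 cells were kept. That 0 of 24 allows a share of up to 12.5%.

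At P1 the genotypes lay closer together for Elovl3. It was over an RPKM of 10 in 35.1% of heterozygous cells (29.9% to 40.6%), and in 22 homozygous cells, 11.8% (7.52% to 17.3%). The difference was -23.3 percentage points (-30.0 to -16.0), and -35.0 points (-45.8 to -23.9) against the heterozygotes with spike-in. After thinning to 100000 reads the shares were 28.8% and 13.4% (-15.5 points). The P1 homozygous share was 9.08 points above that at E13.5 (3.90 to 14.7), while in heterozygotes P1 lay 36.3 points below E13.5 (-36.3, interval -44.8 to -26.7). The CPM was 23.3 in heterozygotes and 9.88 in homozygotes, 2.36-fold lower, and without plate P1H_1 it was 1.70-fold lower. A single homozygous cell with 753 reads gave 30.6% of the group's Elovl3 reads, and without it the level was 3.35-fold lower.

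The 22 P1 homozygous cells with Elovl3 were of several kinds. Their Elovl3 RPKM ran from 11.5 through a median of 32.9 to 143.1, and 19 of the 22 had more Elovl3 than Pitx3 reads. These cells too had no intact Pitx3 copy. Th was over an RPKM of 150 in 10 of them, Aldh1a1 in 6, and Nxph4, a secreted neurexin ligand, in 9. Elovl3 was thus over an RPKM of 10 in 9 of 26 P1 homozygous cells with Nxph4 over 150, 34.6% (17.2% to 55.7%), and in 13 of the others, 8.07% (4.37% to 13.4%). In P1 heterozygotes the order was the other way, with 20.5% of 44 cells with Nxph4 over 150 and 37.5% of the others. Heterozygotes of other stages kept no single order. Elovl3 was over 10 in 78.9% of E13.5 cells with Nxph4 over 150 and in 68.6% of the rest. Later pairs were 82.6% and 70.3% (E15.5), 33.3% and 44.7% (E18.5), 23.1% and 21.7% (P7), and 15.3% and 18.7% (P90). E13.5 homozygotes had 3.39% and 2.36%. Whether these splits differ was not tested.

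**Figure D1:**
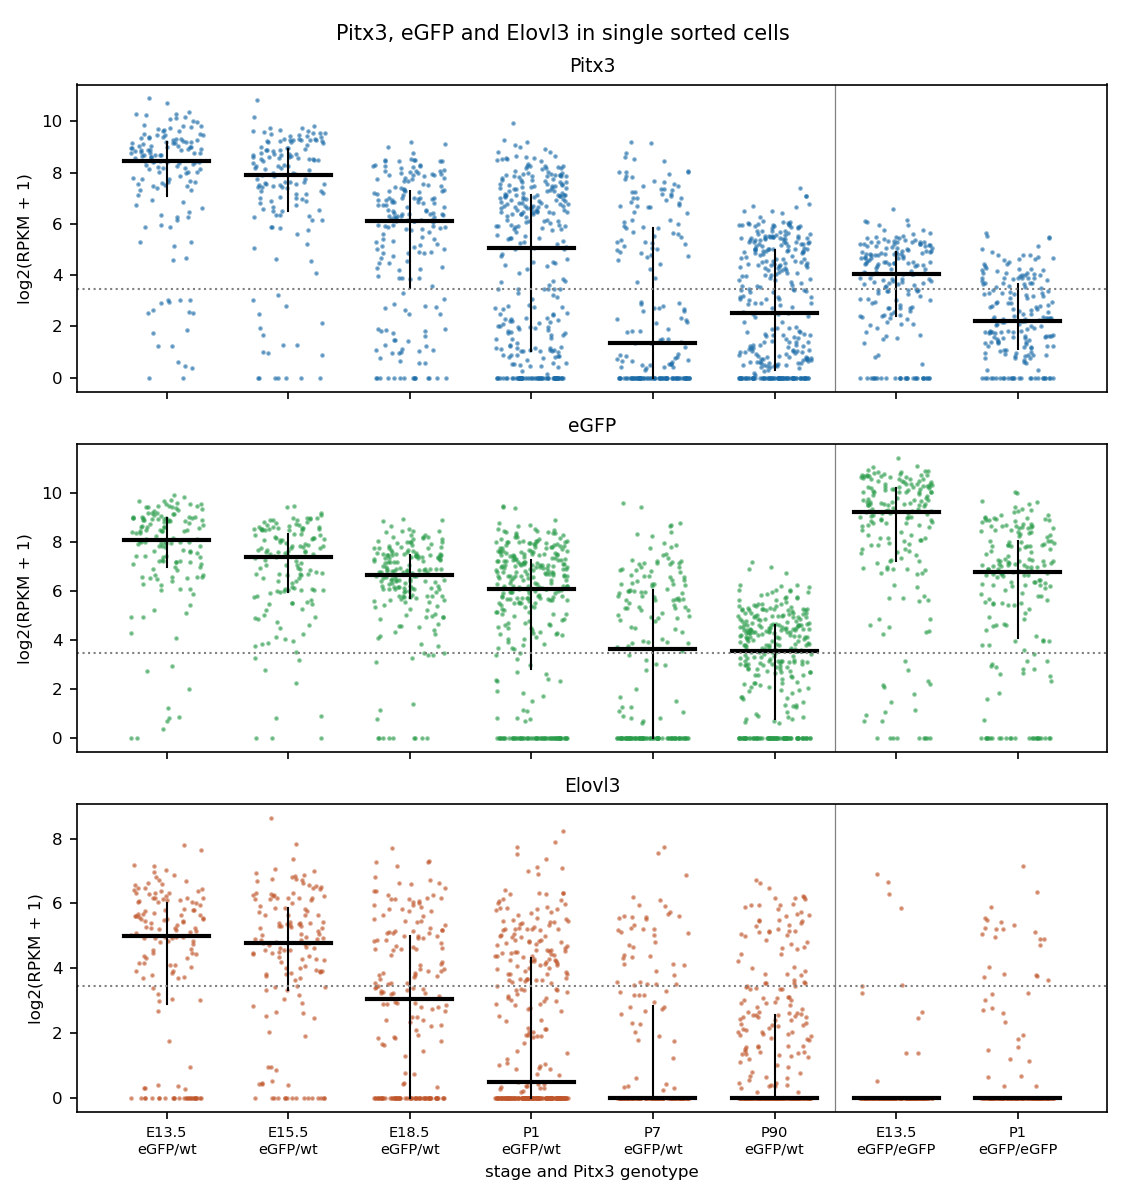
Each point is 1 cell, with log2(RPKM + 1) of Pitx3, eGFP and Elovl3 on the vertical axes and stage and genotype on the horizontal one. Thick bars are medians, thin lines span the quartiles and the dotted line marks an RPKM of 10. Pitx3 and Elovl3 sit lower in both eGFP/eGFP groups than in eGFP/wt cells of the same stage (Elovl3 over the line in 5 and 22 eGFP/eGFP cells). In E13.5 eGFP/eGFP cells eGFP is higher than in any eGFP/wt group.

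Among all genes, Elovl3 and Pitx3 stood near the low end of the genotype comparison at E13.5. Of 15056 genes with a mean of at least 1 read a cell in either genotype, 11.7% were at least 2-fold lower in homozygotes and 7.62% at least 2-fold higher. Of the members, Pitx3 and Elovl3 were among the former and eGFP among the latter. Each gene was ranked by its log2 ratio. From the low end, Elovl3 had rank 360 and Pitx3 rank 406 of all 15056. Their log2 ratios were -4.45 and -4.04. At P1, where 11% of the 16495 genes were at least 2-fold lower and 5.66% at least 2-fold higher, the ranks were 405 for Pitx3 and 1409 for Elovl3. Against the spike-in heterozygotes, where 5.47% were at least 2-fold lower and 14.6% higher, the ranks were 99 and 406 of 15730. eGFP, with a log2 ratio of 0.97 at P1, did not reach 2-fold there.

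Genes around the pair were compared in the same way. Of 24 genes annotated within 250 kb of the Pitx3 start, 21 were in the files, and 17 at E13.5 and 16 at P1 had a mean of at least 1 read a cell. Gbf1, which starts 4.18 kb upstream of Pitx3 on the other strand and encodes an exchange factor of Golgi transport, had a log2 ratio of 0.09 at E13.5 and 0.05 at P1. Leaving out Pitx3 and Elovl3, 15 neighbours at E13.5 ranged from -1.17 to 2.14 with a median of -0.17 (all genes -0.07), and 1 was at least 2-fold lower (Mfsd13a, CPM 18.5 against 8.20) and 1 higher (Hps6, 0.862 against 3.81), near the 11.7% and 7.62% of all genes. At P1, 14 neighbours ranged from -1.52 to 0.26, with 1 at least 2-fold lower (Gm26792, a noncoding RNA at a CPM of 5.04 and 1.75). Against the spike-in heterozygotes Gm26792 had a log2 ratio of -0.66 and none of the 14 was 2-fold apart. The shares of all genes, lower and higher, were 11% and 5.66% at P1 and 5.47% and 14.6% against these heterozygotes. Mfsd13a, Hps6 and Gm26792 were named after their values were seen.

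**Figure D2:**
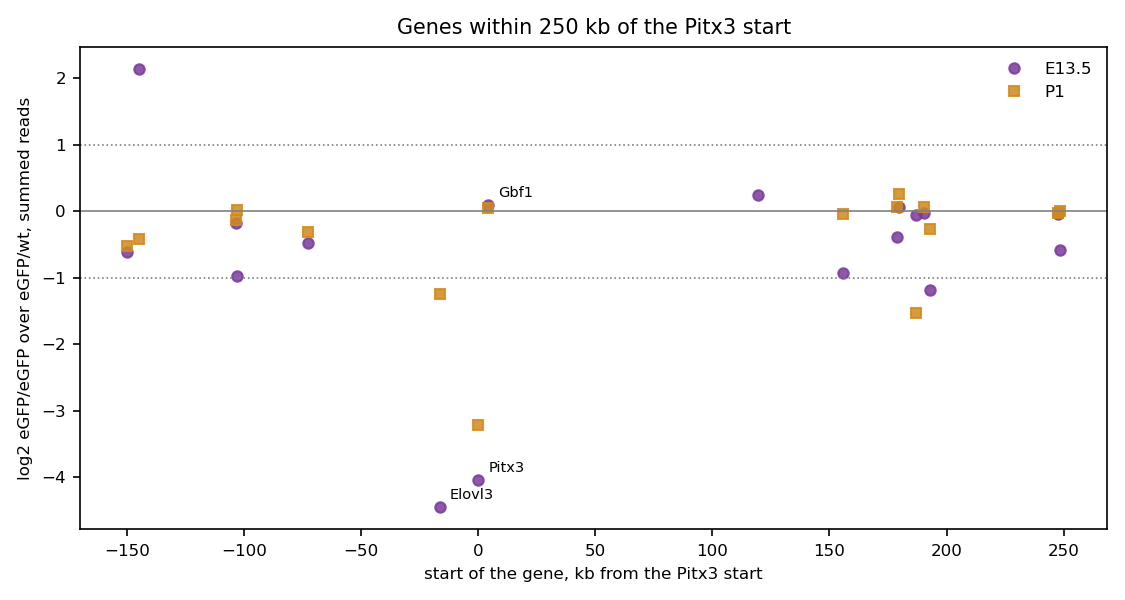
Log2 ratio of summed reads, eGFP/eGFP over eGFP/wt, for genes near Pitx3 at E13.5 (circles) and P1 (squares), against the distance of each gene's start from the Pitx3 start in kb, positive upstream of Pitx3. Dotted lines mark 2-fold. Elovl3 (-4.45 and -1.24) and Pitx3 (-4.04 and -3.22) lie below their neighbours at E13.5, while Gbf1 lies near 0 at both stages.

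Over the 6 heterozygous stages all 3 genes had their highest mean RPKM in the embryo and their lowest at P90. In the order of age, Pitx3 was over an RPKM of 10 in 87.1%, 86.5%, 75%, 56.1%, 38.3% and 42.5% of cells. E13.5 and E15.5 did not differ beyond counting error. Nor did P7 and P90 over all cells (4.16 percentage points, -4.68 to 12.7), but without the oligodendrocyte-marker cells P90 lay below P7 (-14.3, -25.2 to -2.87). In the level per length the gap was wider: the mean RPKM of Pitx3 was 416, 314.5, 105.8, 89.6, 51.03 and 17.9 in that order. Its CPM was 25.1-fold lower at P90 than at E13.5.

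eGFP took a similar course, with shares of 92.9%, 93.6%, 91.5%, 73.98%, 50.5% and 51.1% of cells over an RPKM of 10 and mean RPKM values of 323.02, 199.5, 123.09, 101.96, 55.6 and 16.3. The eGFP CPM was 20.2-fold lower at P90 than at E13.5. No P90 cell had eGFP over an RPKM of 150, although the same sort had selected them. That count of 0 allows a share of up to 0.923%.

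For Elovl3 the shares over an RPKM of 10, again in the order of age, were 71.4%, 72.3%, 43.6%, 35.1%, 21.8% and 16.9%. Its mean RPKM was 39.8, 40.5, 22.4, 16.1, 9.75 and 7.62. From E15.5 to E18.5 the share was 28.7 percentage points lower (-28.7, interval -38.3 to -18.1), while the later neighbouring stages E18.5 and P1 (-8.51, -17.2 to 0.239) and P7 and P90 (-4.89, -12.3 to 2.04) did not differ beyond counting error. Without the oligodendrocyte-marker cells the last of these was -17.2 points (-27.8 to -7.45), while P1 and P7 went from -13.3 (-20.9 to -5.13) to -6.32 (-16.9 to 5.15). The Elovl3 CPM was 5.66-fold lower at P90 than at E13.5, a smaller factor than for Pitx3 or eGFP.

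Cells of another lineage entered the postnatal shares. In the oligodendrocyte-marker cells of P1 and P7 heterozygotes, Pitx3 was over an RPKM of 10 in 18.3%, eGFP in 32.4% and Elovl3 in 9.15%, at a median depth of 2126899 reads against 1725896 in the other cells. Without such cells the P7 shares were 56.8% for Pitx3, 69.5% for eGFP and 33.7% for Elovl3, and the P1 heterozygous shares were 63.3%, 81.1% and 40%. The P90 shares were 42.5%, 50.6% and 16.5% without the 3 such cells there. The P1 heterozygotes also differed by plate, with Elovl3 in 46.8% of the 94 cells of the named plate P1_1, which is the one with spike-in, and in 30.2% of the others. Unless stated, mean RPKM and CPM are over all cells of a group, so they hold both the share of cells with a gene and its level in them. Dissociation kits also changed between E18.5, P1 and P90, and their part was not tested.

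Relative to Pitx3, Elovl3 was a larger share at later stages. In heterozygotes the Elovl3 reads per 100 Pitx3 reads numbered 12.7 at E13.5 (95% interval 12.6 to 12.9), then 17.6, 28.1, 25.2 and 27.6 in the stages between, and 56.4 at P90 (54.8 to 58.1). Without the 3 oligodendrocyte-marker cells the P90 value was 54.6, outside that interval. On the scale per length, the mean RPKM of Pitx3 was 10.4 times that of Elovl3 at E13.5 and 2.35 times at P90. Cells with more Elovl3 than Pitx3 reads made up 0.885% of the cells with any Elovl3 read at E13.5 and 31.9% at P90. Homozygotes have no intact Pitx3 copy, so their ratio is not the same measure as in heterozygotes. At P1 their Elovl3 CPM was 9.88 against 23.3 in heterozygotes, and their Pitx3 CPM 9.96 against 92.7. In homozygotes the ratio was 9.62 per 100 at E13.5 and 99.2 at P1. The E13.5 value was 5.40 without the cell with the most Elovl3 reads and 17.3 without plate 13H_6. The P1 value was 74.4 without its cell with the most Elovl3 reads, 70.7 without plate P1H_2 and 128.8 without P1H_1. These alternatives were chosen after the data were seen.

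**Figure D3:**
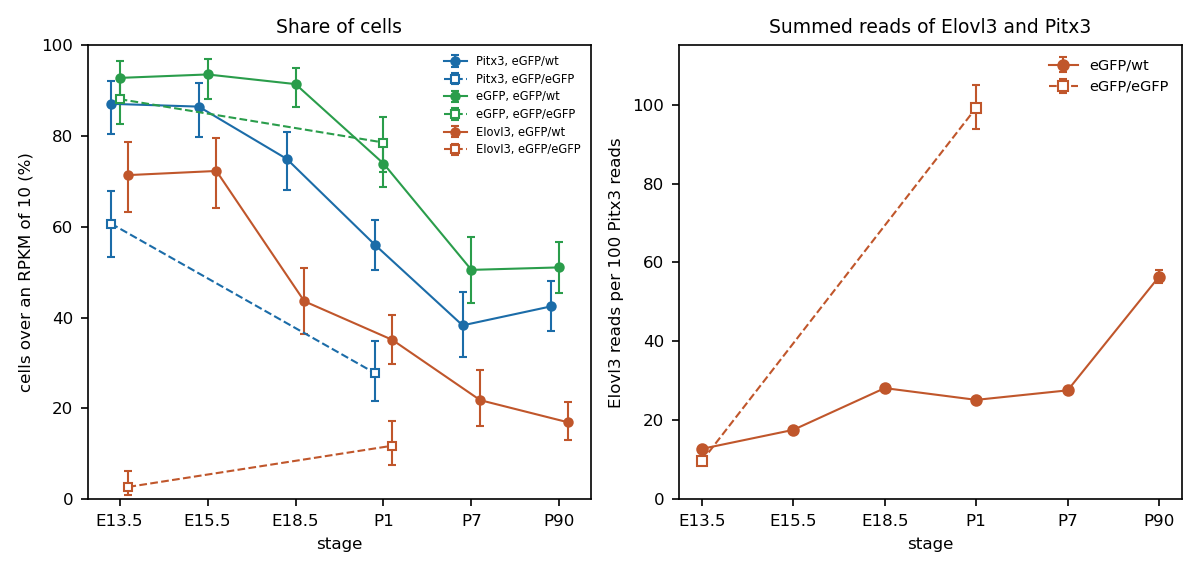
Left, share of cells over an RPKM of 10 by stage for Pitx3, eGFP and Elovl3 in eGFP/wt (filled circles) and eGFP/eGFP cells (open squares), with 95% Clopper-Pearson intervals. Right, Elovl3 reads per 100 Pitx3 reads summed over cells, with 95% binomial intervals that the symbols mostly hide. The eGFP/eGFP cells have no intact Pitx3 copy, so their values there are not the same measure as those of eGFP/wt cells. Elovl3 goes from 71.4% to 16.9% of eGFP/wt cells while its reads per 100 Pitx3 reads go from 12.7 to 56.4.

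Within a stage, heterozygous cells with more Pitx3 had more Elovl3. Spearman's rank correlation of the RPKM values over cells was 0.82, 0.68 and 0.57 at the embryonic stages and 0.74, 0.70 and 0.52 at the postnatal ages. The last of these, over the P90 cells, was 0.32 with 100000 reads drawn from each cell. The number of cells behind each is the group size given above. Cells of a stage share their animals and plates, so these values are descriptions. With total reads, Elovl3 had rank correlations between -0.07 and 0.24 in these stages. Of 11459 genes with reads in at least 10% of the cells of every heterozygous stage, Elovl3 was the one most like Pitx3 (median rank correlation over the 6 stages 0.69) and Pitx3 the one most like Elovl3.

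At E13.5 both the share of cells with Elovl3 and its level were higher in bins with more Pitx3. Cells were ordered by Pitx3 and split into 4 bins of equal size. In the lowest bin (Pitx3 RPKM from 0 to 119.5, 35 cells) 14.3% had Elovl3 over an RPKM of 10, in the next 77.1%, and in the upper bins 97.1% each, with a mean Elovl3 RPKM of 3.52, 27.5, 47.9 and 80.5. The share thus differed most between the lowest bins, and the mean most between the highest. All 100 cells with Elovl3 over 10 also had Pitx3 over 10, and of the 18 cells without Pitx3 over 10 none had Elovl3 over 10, which allows a share of up to 16.7%. At P90 the bins gave 4.88%, 12.3%, 17.3% and 33.3%.

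Cells with Elovl3 were then checked for Pitx3. Over all homozygous cells, Pitx3 was over an RPKM of 10 in 60.8% at E13.5 and in 27.8% at P1. Over an RPKM of 10 for both genes, Pitx3 was present in 100%, 96.1%, 92.7%, 94.6%, 90.2% and 65.5% of the heterozygous cells with Elovl3 in the order of age, and in all 5 homozygous ones at E13.5 and 15 of 22 (68.2%) at P1. By reads, the heterozygous cells with an Elovl3 read but no Pitx3 read were 1 cell at E13.5, 3 each at E15.5, E18.5 and P7, 5 at P1 and 10 at P90. Over all cells of these stages a Pitx3 read was in 98.6%, 95.04%, 92.02%, 81.5%, 62.2% and 76%. In homozygotes all 12 cells with an Elovl3 read at E13.5 and all 39 at P1 had a Pitx3 read as well, as did 84.9% and 85.6% of all cells of these groups. The reverse was not so. Of E13.5 cells with at least 100 Pitx3 reads, 11 heterozygous ones (9.40%) and 13 of 15 homozygous ones had no Elovl3 read. A cell with at least 100 Pitx3 reads could thus lack Elovl3 in either genotype at E13.5. The same read count stood for unlike levels: every E13.5 homozygous cell had a Pitx3 RPKM of at most 94.7. That lies within the lowest heterozygous bin (0 to 119.5). At P1 the 2 homozygous cells with at least 100 Pitx3 reads both held an Elovl3 read.

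The rank correlations of these pairs had other values in homozygotes. The rank correlation between Pitx3 and eGFP was 0.85 at E13.5 and 0.80 at P1, against 0.70 in heterozygotes of both stages. With every cell thinned to 100000 reads the values were 0.73 and 0.48 in homozygotes and 0.67 and 0.62 in heterozygotes, so that the order at P1 turned. The rank correlation between Pitx3 and Elovl3 was 0.19 at E13.5 and 0.49 at P1. The rank correlation between eGFP and Elovl3 was -0.01 and 0.27, against 0.63 and 0.52 in heterozygotes. An Elovl3 read was in 6.45% of homozygous cells at E13.5 and 20.9% at P1, against 80.7% and 53.3% of heterozygous ones. Most homozygous cells were thus tied at an Elovl3 of 0, which limits how high a rank correlation can be. The values with Elovl3 therefore cannot tell a weaker relation from sparse Elovl3 reads. At P1 the highest bin of homozygous cells by Pitx3 (RPKM 11.97 to 48.5) had Elovl3 over 10 in 32.6% (19.5% to 48.02%), and the lowest bin in 0 of 47, which allows up to 6.38%.

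**Figure D4:**
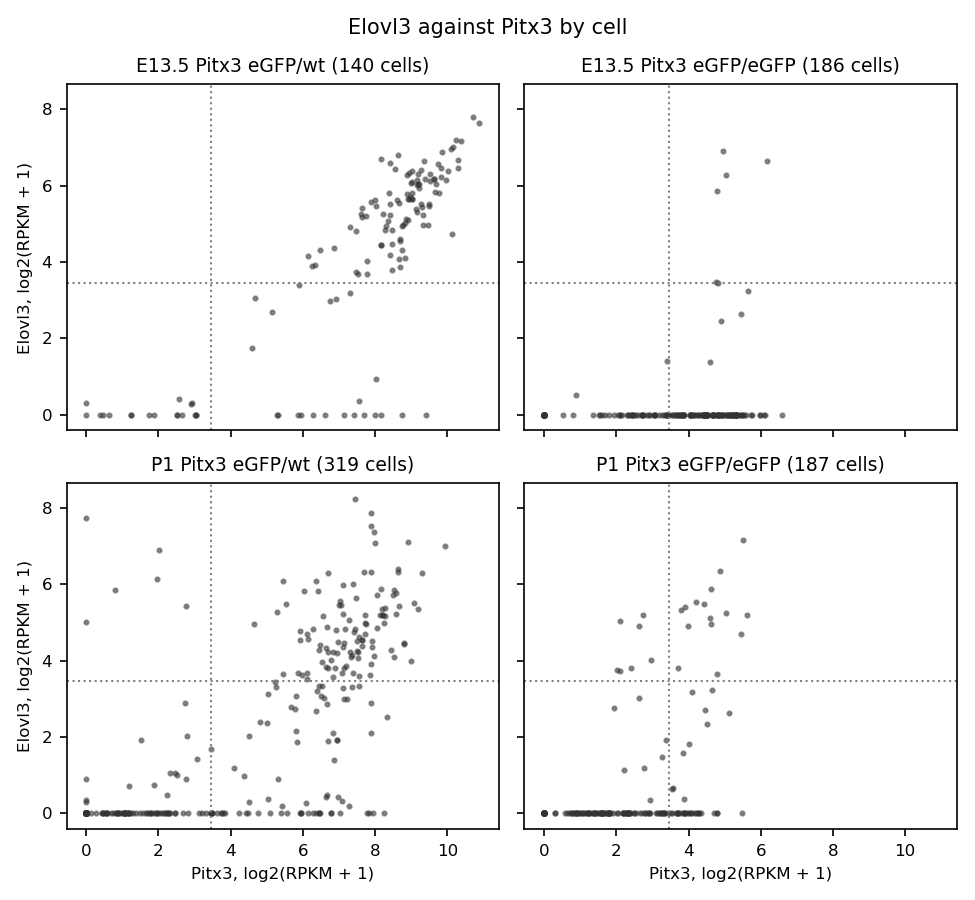
Each point is 1 cell, with log2(RPKM + 1) of Pitx3 on the horizontal axis and of Elovl3 on the vertical one, by stage and genotype. Dotted lines mark an RPKM of 10. In E13.5 eGFP/wt cells the points form 1 rising band with a rank correlation of 0.82, and in E13.5 eGFP/eGFP cells nearly all points lie at an Elovl3 of 0.

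In heterozygotes, eGFP sits on 1 copy of the locus and the intact Pitx3 gene on the other. Since Pitx3 reads were also counted in homozygotes, Pitx3 reads cannot be assigned to the intact copy alone. The balance of both was taken cell by cell as eGFP RPKM in percent of Pitx3 plus eGFP RPKM, in cells with at least 20 reads of both together. The median was 47.4%, 38.9% and 58.3% at the embryonic stages and 57.4%, 58.7% and 41.1% at the postnatal ages. The spread was wider at P90: quartiles were 36.2% and 60.95% at E13.5 and 16.6% and 88.9% at P90, a range of 24.8 and 72.3 percentage points. Cells with eGFP under 10% of the sum made up 5.26% at E13.5 (7 cells) and 20.3% at P90 (42 cells, 15.03% to 26.4%). Cells with eGFP over 90% made up 8.27%, 6.82% and 16.8% at the embryonic stages and 25.4%, 24% and 24.2% at the postnatal ages. In homozygotes the median was 97.5% at E13.5 and 96.98% at P1.

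The reads behind this balance differed by stage, with a median of 1405 per cell at E13.5 and 67 at P90. With at least 100 reads, a limit chosen after the data were seen, the P90 cells with eGFP under 10% still made up 20.6% (14 of 68), while those over 90% went from 24.2% to 5.88%, against 6.20% at E13.5. The range between the P90 quartiles went from 72.3 to 35.25 points (24.3 at E13.5). The share over 90% was also lower with this limit at E18.5 (5.74%), P1 (16.1%) and P7 (9.46%). The 4 P90 plates gave 12.5% to 27.3% under 10% and 18.6% to 31.3% over 90%. Across P90 cells, the rank correlation between Pitx3 and eGFP was 0.16, against 0.53 to 0.81 at the other heterozygous stages, and the rank correlation between eGFP and Elovl3 was 0.03. At P90 Pitx3 was over an RPKM of 10 in 47.6% of cells with eGFP over 10 and in 37.1% of cells without it, against 91.5% and 30% at E13.5.

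**Figure D5:**
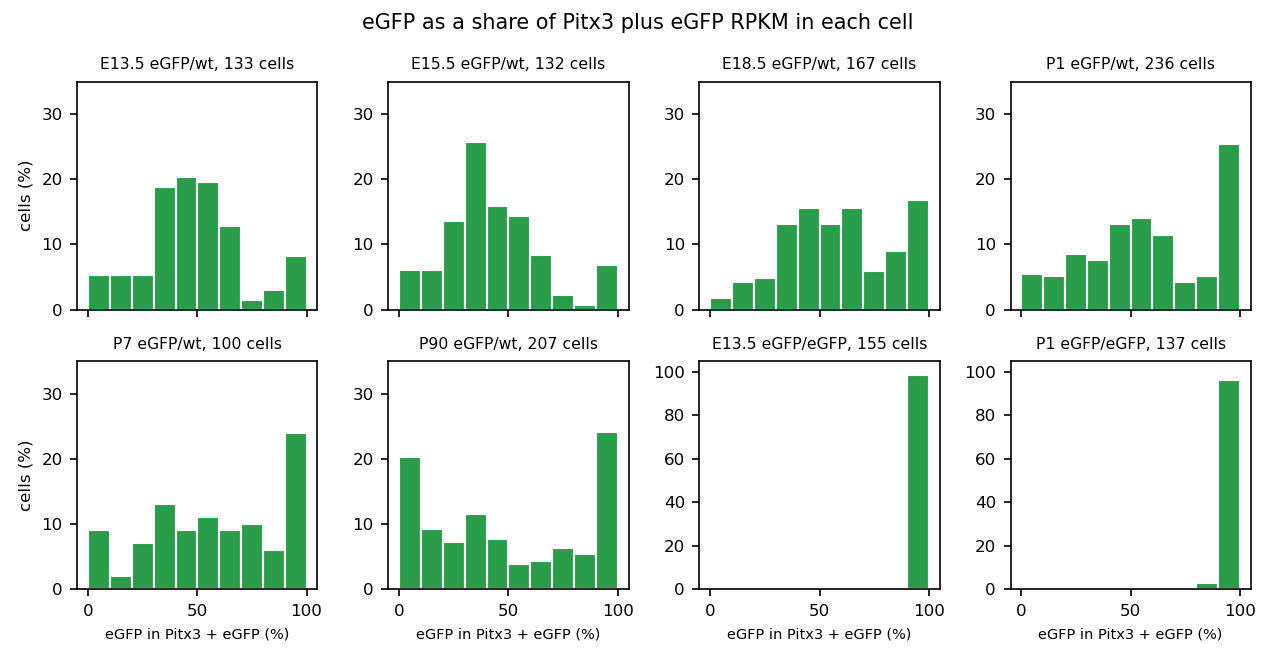
Histograms of eGFP RPKM in percent of Pitx3 plus eGFP RPKM, by cell, in steps of 10 percentage points, with the share of cells in percent on the vertical axis, on a wider scale in the eGFP/eGFP panels. The eGFP/wt cells have a central peak at E13.5, and at P90 they pile up at both ends, with 20.3% under 10% and 24.2% over 90%. With at least 100 reads the upper share at P90 was 5.88%.

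The gene most like eGFP over cells was En2, a homeodomain factor of the midbrain and hindbrain, and not Pitx3. Its median rank correlation with eGFP was 0.82 over the 6 heterozygous stages (0.52 at P90 to 0.88 at P7), against 0.68 for Pitx3, 0.48 for Elovl3, 0.38 for Nr4a2 and 0.37 for Fscn1, an actin-bundling protein. In homozygotes it was 0.92 at E13.5 and 0.87 at P1. En2 reads stood at 25.96 to 33.98 per 100 eGFP reads in every group but P90 (46.4), in homozygotes (28.8 and 28.4) as in heterozygotes, while eGFP itself ran from a CPM of 9.93 at P90 to 449.7 in E13.5 homozygotes. En1, the close relative of En2, varied from 27.7 to 601 per 100 eGFP reads and had rank correlations with eGFP between -0.09 and 0.55. Of the cells with no eGFP read, 26.7% held an En2 read and 68.4% an En1 read, at a median of 1607610 reads, and of the 1408 cells with an eGFP read, 93.8% and 94.6%, at 1671109. By group, the shares without an eGFP read ran from 0% to 55.6% for En2 and from 33.3% to 100% for En1. Only in E13.5 homozygotes, with 9 such cells, was the En2 share above that of En1. Whether reads counted for En2 came from the En2 gene or from the reporter allele was not tested.

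After eGFP and Elovl3, the genes most like Pitx3 in heterozygotes included En2 (median rank correlation 0.62) and Tubb3, a neuronal tubulin (0.36). The list for Elovl3 included Pitx3 (0.69), eGFP (0.48), En2 (0.42) and Tubb3 (0.29). In homozygotes the genes most like Pitx3 included eGFP (0.82), En2 (0.78), Cacng3 (0.41) and Ndst3 (0.40), with Elovl3 at rank 10 of 12189 genes (0.34). Those most like eGFP there included En2 (0.90), Pitx3 (0.82), Kcnk9 (0.52) and Foxa1 (0.47). Elovl3 in homozygotes was most like Pitx3 (0.34), and then had only weak values with Zfp563 (0.23), Gm15138 (0.22), Cx3cl1 (0.21) and Gm12749 (0.21), from sparse reads. The 3 members were kept in these lists whatever their reads. Elovl3 had a read in only 6.45% of E13.5 homozygous cells, below the 10% asked of other genes.

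The share of cells with Elovl3 was also taken by dopamine neuron genes. At E13.5 it was over an RPKM of 10 in 75.6% of 90 heterozygous cells with Th over 150 and in 64% of 50 others, and at E15.5 in 70.6% and 76.9%. At E18.5 the shares were 51.1% and 22.4%, and at P1 50.8% (43.3% to 58.3%) and 13.97% (8.63% to 20.95%). At P7 they were 42.6% and 11.8%, and at P90 19.7% (14.1% to 26.3%) and 13.6% (8.51% to 20.2%), with overlapping intervals. Without oligodendrocyte-marker cells the second share was 18.4% at P1 and 20.9% at P7. Pitx3 was over 10 in 78.1% and 26.5% of these P1 cells. Cells with Aldh1a1, a retinaldehyde dehydrogenase of ventral nigral neurons, over 150 had Elovl3 in 57.3% at P1 and 35.5% at P90, against 24.5% and 12.5% of the others. At P7 the shares were 24.6% and 20.2%, but only 26 of the 69 cells with Aldh1a1 over 150 there were outside the oligodendrocyte-marker cells, and without such cells, an alternative chosen after seeing the data, the shares were 50% (29.9% to 70.1%) and 27.5% (17.5% to 39.6%). At E18.5, Elovl3 was over 10 in 1 of 26 cells with Gad2, a GABA-making enzyme, over 150, and in 50% of the others. This order did not hold at every stage: the shares were 41.7% and 74.2% at E13.5, 100% (11 cells) and 70% at E15.5, 37.8% and 34.8% at P1, 15.4% and 22.3% at P7, and 8.64% and 19.7% at P90.

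In homozygotes the Elovl3 shares by Th lay close together, with few cells behind each. Elovl3 was over 10 in 3.70% of those at E13.5 when Th was over 150 and in 1.90% otherwise, and at P1 in 11.1% and 12.4%. The cells with Th over 150 numbered 81 and 90 in these groups.

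Genes linked to Pitx3 in dopamine neurons were compared between genotypes beside it. Of 10 such genes, 4 at E13.5 and 3 at P1 were at least 2-fold lower in homozygotes (11.7% and 11% of all genes) and none was 2-fold higher, with a median log2 ratio of -0.80 (all genes -0.07) and -0.63 (all genes -0.05). Against spike-in heterozygotes 6 of 10 were at least 2-fold lower (5.47% of all genes). Markers of other cells also differed between the P1 genotypes. At least 2 of 4 microglia markers were over an RPKM of 10 in 6.42% of homozygous and 0.940% of heterozygous cells (summed mean RPKM 441 and 84.9), and at least 2 of 4 astrocyte markers in 15.0% and 11.3% (353.5 and 208.9). By summed mean RPKM, oligodendrocyte markers (167.7 and 393.1) and endothelial ones (3.45 and 55.3) were lower in homozygotes. At least 2 of the oligodendrocyte markers were over 10 in 27.3% and 26.6%. The part of these cells in the ratios was not tested. The paper reports that few homozygous cells joined its subtypes with Aldh1a1 and Slc6a3, and the part of that was not tested either. Slc6a3, the dopamine transporter, had log2 ratios of -5.33 at E13.5 and -3.17 at P1, Slc18a2, the vesicular monoamine transporter, -1.56 and -1.54, and Th, the rate-limiting enzyme of dopamine synthesis, -1.41 and -0.61. Aldh1a1 had -0.63 and -2.45, and Bdnf, a neurotrophin, -2.54 and -0.34. The other values were those of Ddc, the decarboxylase after Th (-0.72 and -0.66), Drd2, the dopamine autoreceptor (-0.43 and -0.80), the GDNF receptor Ret (-0.89 and 0.03), En1 (-0.60 and -0.04) and Gch1, which makes the cofactor of Th (0.01 and 0.06). At P1 against the spike-in heterozygotes the log2 ratios of Th, Drd2 and Bdnf were past 2-fold (-1.36, -1.51 and -1.16), beside Slc6a3 (-4.20), Aldh1a1 (-3.59) and Slc18a2 (-2.69). Elovl3 at E13.5 thus had a lower ratio than 9 of the 10.

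Of 10 lineage factors of midbrain dopamine neurons, none was 2-fold lower at E13.5 and En2 and Otx2 were 2-fold higher (log2 1.06 and 1.47), against 11.7% and 7.62% of all genes. At P1 Foxa1 was 2-fold higher (1.12) and Sox6 2-fold lower (-1.74), while against spike-in heterozygotes neither was 2-fold apart (0.45 and 0.10) and Otx2 was 2-fold higher (1.24). The shares of all genes, lower and higher, were 11% and 5.66% at P1 and 5.47% and 14.6% against spike-in heterozygotes, so counts of 0 or 1 in 10 lie near them. The En2 ratio lay near that of eGFP at both stages (0.84 against 0.97 at P1). Nr4a2, the factor that acts with Pitx3 on dopamine genes, had -0.51 and 0.02. Pitx1, a relative of Pitx3, was sparse, at a CPM of 0.00304 in heterozygotes and 2.39 in homozygotes at E13.5.

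Among genes of fatty acid elongation, Elovl3 had the lowest ratio at E13.5. Of 13 genes of very long chain fatty acid elongation, 11 had a mean of at least 1 read a cell there, and Elovl3 alone was at least 2-fold lower and none was 2-fold higher. As a count this lies near the 11.7% of all genes that were 2-fold lower. The other elongases with enough reads had log2 ratios of 0.14 (Elovl1), -0.45 (Elovl2), -0.05 (Elovl4), -0.34 (Elovl5) and 0.62 (Elovl6). The later enzymes Hsd17b12, Hacd3 and Tecr, which complete each cycle, had 0.16, 0.09 and -0.22. At P1 Elovl3 was again the only one of 13 that was 2-fold lower (-1.24, but -0.76 without plate P1H_1), and Hacd4, at a CPM of 2.23 and 5.42, was 2-fold higher (1.28), which as counts lie near the 11% and 5.66% of all genes. Per length, mean RPKM in E13.5 heterozygotes was 39.8 for Elovl3, 50.9 for Elovl5, 41.1 for Elovl4 and 32.9 for Elovl2, and at P90 it was 7.62, 42.03, 25.7 and 3.01.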

How the data were processed

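Cells from dissociated ventral midbrain were sorted for GFP and made into Smart-seq2 libraries. The authors aligned the reads with STAR to mm10 joined with the eGFP and spike-in sequences and kept uniquely mapping reads. They deposited a read count and an RPKM value for every Ensembl gene model in each cell. From the deposited counts, summed reads and depth were taken, and from the deposited RPKM, levels per cell, shares and rank correlations.

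Cells with over 100000 reads were kept (100007 to 8634201 reads). A gene was called present over an RPKM of 10. The alternatives were 1, 50 or at least 1 read, thinning to 100000 reads with a fixed seed, cells over 500000 reads, other scalings, and leaving out oligodendrocyte-marker cells or plates. No doublets were called. Genotypes were compared by the log2 ratio of summed counts per summed reads, over genes with a mean of at least 1 read a cell in either group. Labels name no animal, so there was 1 sample a group and no test. Scripts (Python 3.11.15, NumPy 2.4.6, SciPy 1.17.1, pandas 2.3.3, matplotlib 3.10.9) were tested on simulated data. Genes named are the members, neighbours within 250 kb that touch them, genes of the lists given, the 5 genes most alike by median rank correlation, and genes that split the cells (Th, Aldh1a1, Nxph4, Gad2). A few others (Gbf1, Mfsd13a, Hps6, Gm26792) were named for their place or values near Pitx3. Some genes that this rule selects are not reported here. Members, lists and splits were chosen with earlier results of these data known.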

Additional observations from a re-analysis of the deposited data

Results flagged for a closer look

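Elovl3 had opposite differences between stages in the 2 genotypes. Its share of cells over an RPKM of 10 was lower at P1 than at E13.5 in heterozygotes (-36.3 percentage points) and higher in homozygotes (9.08 points, from 5 to 22 cells). With 1 sample for each stage and genotype the difference between these was not tested. The eGFP share was lower in homozygotes at E13.5 (-4.69 points) and higher at P1 (4.63 points), both within counting error of 0, and this difference was not tested either.

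The 25 cells left out for depth, with 1363 to 75509 reads, were not used above. A Pitx3 read was in 20% of them (5 cells, 95% interval 6.83% to 40.7%) and an eGFP read in 20% (5 cells, the same interval), and an Elovl3 read was in 3.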

How the results depend on the processing

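No paired analysis was possible because no result comes from a test and each group is 1 sample. For the difference in share between genotypes, 50 of 63 alternatives stayed within counting error, 11 moved and 2 reversed a difference larger than counting error. That was the difference of Pitx3 at P1 (-28.3 percentage points): 1.77 with an RPKM over 1 and 4.06 with at least 1 read. With at least 1 read, the spike-in heterozygotes lay above the homozygotes (92.6% and 85.6%). The Pitx3 difference at E13.5 was -13.1 with an RPKM over 1, -79.3 over 50 and -13.6 with at least 1 read, and at P1 -46.4 over 50 and -42.4 against spike-in heterozygotes. The eGFP difference at P1 (4.63, within counting error of 0) also changed sign against these (-7.56). The Elovl3 difference was -28.6 at E13.5 over 50, and at P1 -7.17 over 50, -32.4 with at least 1 read, -15.5 after thinning and -35.0 against spike-in heterozygotes. The log2 ratio of Elovl3 stayed negative throughout. At E13.5 it was -4.23 by mean RPKM, -4.70 to -4.16 without single plates and -5.28 without the cell with most Elovl3 reads. At P1 it was -1.73 by the mean CPM per cell, -1.78 by mean RPKM, -1.48 without oligodendrocyte-marker cells, -1.67 against spike-in heterozygotes, -1.81 to -0.76 without single plates and -1.75 without the cell with most reads. Leaving out that cell was chosen after seeing the data at both stages. Genes at least 2-fold lower made up 20.3% at E13.5 and 21.7% at P1 with no filter and 5.02% and 5.64% with at least 10 reads a cell, and genes 2-fold higher 20.2% and 18.3%, and 2.75% and 1.84%. The causes were not tested. Alternatives moved a value beyond its 95% interval in 8.33% of cases for the correlations, 74.5% for the log2 ratios, 34.3% for the shares and 43.8% for the eGFP balance. The limits are 1 sample a group, no named animals, and spike-in that cannot be told apart from genotype at E13.5. Plate cannot be told apart from genotype at E13.5 or P1.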
